A study of Mus musculus with 24 samples.

Results

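The sphingosine 1-phosphate (S1P) and autotaxin genes were examined in cells sorted from Peyer's patches of mice, the lymphoid follicles of the small intestine wall. The group was chosen by gene symbol and holds 8 genes of the 36528 gene models counted: the sphingosine kinases Sphk1 and Sphk2, the S1P lyase Sgpl1, the S1P exporter Spns2, the receptors S1pr1, S1pr2 and S1pr3, and Enpp2, which encodes autotaxin. The 24 bulk RNA-seq libraries hold endothelial cells of high endothelial venules (HEV cells, the lining of the venules through which lymphocytes enter) or fibroblastic reticular cells (FRCs, the fibroblasts of the lymphoid scaffold). HEV cells came from mice given polyethylene glycol (PEG, an osmotic agent) in the drinking water at 10% w/v for 3 days in 6 libraries and from unperturbed control mice in 4. FRCs came from PEG-treated mice in 7 libraries and from control mice in 7. PEG was given to lower fluid flow, which the files do not measure. Each library was made from 1000 cells of 1 mouse, and libraries are named by the number in their labels. Strain, age, sex and the antibodies of the sort are not given in the sources used here. Whether HEV cells and FRCs came from the same mice is not stated either.

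S1P is a lipid signal made inside cells by sphingosine kinases, carried out by exporters such as Spns2, and broken down by the lyase Sgpl1. Lymphocytes follow S1P gradients out of lymphoid tissue, and endothelial S1P receptors act on junctions and barrier function. Autotaxin is a secreted enzyme that makes lysophosphatidic acid (LPA), a related lipid signal, and both HEV cells and FRCs of lymph nodes are known sources of it.

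Promoter windows from RefSeq (mouse build GRCm38.p6), reaching from 250 bases before to 50 bases after the annotated start, were matched for 6 of the 8 members, all but S1pr1 and Enpp2. The windows of Spns2, S1pr2 and S1pr3 are shown because these 3 genes differed most between the cell types among the members with a window. They run 5′ to 3′ on the strand of the gene, and capitals mark matches to the GC box GGGCGG on either strand. Spns2 lies at chr11:72474978-72475277 (minus strand), S1pr2 at chr9:20976744-20977043 (minus strand) and S1pr3 at chr13:51408368-51408667 (plus strand).
Spns2: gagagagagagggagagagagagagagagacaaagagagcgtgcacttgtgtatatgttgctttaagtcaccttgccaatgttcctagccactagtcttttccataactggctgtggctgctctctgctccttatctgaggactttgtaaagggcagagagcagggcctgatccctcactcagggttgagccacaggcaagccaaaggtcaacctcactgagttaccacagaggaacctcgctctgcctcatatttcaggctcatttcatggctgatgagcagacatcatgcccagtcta
S1pr2: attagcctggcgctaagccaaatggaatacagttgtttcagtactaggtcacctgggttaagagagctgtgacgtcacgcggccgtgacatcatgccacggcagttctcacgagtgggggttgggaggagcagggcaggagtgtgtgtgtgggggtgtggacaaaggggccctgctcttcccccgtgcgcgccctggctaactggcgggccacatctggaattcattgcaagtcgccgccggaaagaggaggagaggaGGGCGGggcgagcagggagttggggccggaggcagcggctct
S1pr3: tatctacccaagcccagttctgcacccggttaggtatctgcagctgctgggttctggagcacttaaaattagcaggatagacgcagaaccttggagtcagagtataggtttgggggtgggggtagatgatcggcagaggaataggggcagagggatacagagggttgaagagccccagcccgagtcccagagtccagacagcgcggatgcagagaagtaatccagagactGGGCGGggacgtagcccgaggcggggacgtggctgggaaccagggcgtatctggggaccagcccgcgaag

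The Spns2 window was 50.3% G or C with 2 CpG dinucleotides. The S1pr2 window was 62% G or C with 18 CpG dinucleotides, and the S1pr3 window 59% with 14. The median over 32851 mouse promoter windows was 52.7% G or C with 7 CpG dinucleotides. Spns2 has 7 RefSeq transcripts and 1 window here. As S1pr1 and Enpp2 have no window, these values do not compare genes of the 2 cell types. A GC box match began at base 9 after the start in S1pr2 and 20 bases before it in S1pr3, and 35.7% of all windows hold one. On both strands, matches were also sought to the ETS core GGAAG (in 71.4% of all windows), the KLF box CACCC (57.5%), the AP-1 site TGANTCA (7.81%) and the TATA box TATAAA (13.6%). The Spns2 window held none of the 5 motifs. The S1pr2 window held 1 ETS core and 1 KLF box, and the S1pr3 window 2 KLF boxes, none of which overlaps the GC box.

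The gene counts summed to between 12416032 and 21710946 reads in 23 libraries and to 3115003 in HEV PEG library 16. Both cell types carried their defining markers. The endothelial junction gene Pecam1 was at 451 to 1764 CPM (the count scaled to the library total) in HEV libraries and at 0.0588 to 9.70 CPM in FRC libraries. The fibroblast receptor gene Pdgfra was at 0 to 1.61 CPM in HEV libraries and at 355 to 784 CPM in FRC libraries. The lymphatic endothelial gene Prox1 was at 0.112 to 18.8 CPM and Lyve1 at 12.9 to 71.0 CPM in HEV libraries. The libraries numbered 1 to 9 differed from those numbered 10 to 24 whichever cell type was sorted. The levels of the members that this touches are given for both ranges further below.

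HEV cells carried the exporter Spns2, the receptor S1pr1 and more autotaxin transcript, whereas FRCs carried S1pr2 and S1pr3. Under PEG, 3 of the 8 members were higher and 2 lower in HEV cells than in FRCs (edgeR quasi-likelihood test, Benjamini-Hochberg adjusted p under 0.05), where 26.8% of 14991 genes passed (12.5% higher, 14.4% lower). In control mice 3 were again higher and 2 lower, where 24.6% of 15743 genes passed (10.4% higher, 14.2% lower). The same 5 members passed in both comparisons, which share no library. The median log2 fold change of the members was -0.28 under PEG and -0.57 in control mice, against -0.08 and -0.16 over all genes tested. As these are sorted bulk samples, fewer cells that express a gene and less RNA per cell cannot be told apart. The tests measure the spread between libraries, and where both cell types enter, some of these may share a mouse.

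**Figure D1:**
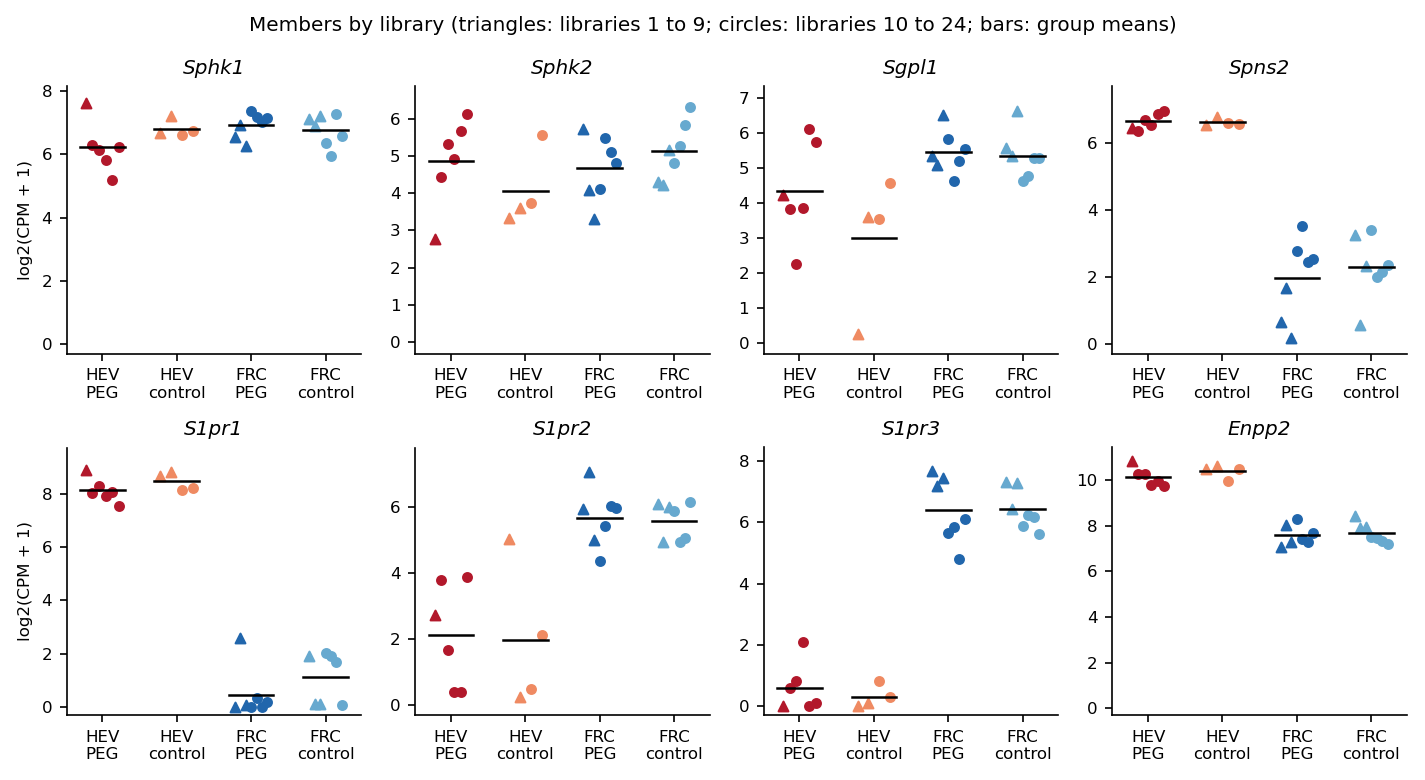
Expression of the 8 members in each library as log2(CPM + 1) on the vertical axes, by group, with black bars for group means, triangles for libraries 1 to 9 and circles for libraries 10 to 24. Spns2, S1pr1 and Enpp2 lie higher in all 10 HEV libraries than in all 14 FRC libraries, S1pr3 lies lower, and the PEG and control groups overlap for every member.

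The exporter gene Spns2 moves S1P across the plasma membrane and is known as an endothelial source of lymph S1P. Its level in the 6 HEV PEG libraries was 81.2 CPM at the lowest, 97.5 at the median and 125 at the highest, against 0.121, 4.49 and 10.4 CPM in the 7 FRC PEG libraries. In HEV control libraries 8, 9, 17 and 24 it was 92.9, 110, 96.7 and 94.1 CPM, against a lowest, median and highest of 0.482, 4.03 and 9.46 CPM in FRC control libraries. All HEV libraries lay far above all FRC libraries, with little spread among the HEV libraries. The log2 fold change of HEV over FRC was 4.78 ± 0.59 (SE) under PEG (adjusted p = 3.35e-05) and 4.50 ± 0.60 in control mice (adjusted p = 1.83e-04). Without HEV PEG library 7 the value under PEG was 4.07, and in libraries 1 to 9 alone, which hold 1 HEV PEG library, it was 6.55 (adjusted p = 0.0533). Spns2 was at 81.2 CPM in HEV PEG library 14, where Prox1 was at its lowest of 0.112 CPM (2 reads) and S1pr1 was at 260 CPM. Spns2 was at 87.4 CPM in HEV PEG library 7, where Prox1 was at its highest of 18.8 CPM and S1pr1 at its highest of 472 CPM. Lyve1 went the other way, at its HEV PEG highest of 39.6 CPM in library 14 and lower in library 7. Summed over 11 lymphatic endothelial markers, the level was 122 CPM in library 14 and 128 CPM in library 7. Library 7 is also the 1 HEV PEG library of libraries 1 to 9. S1pr1 was higher in every HEV library of that range than in any HEV library of 10 to 24. The pairing of Prox1 with S1pr1 is therefore not interpreted. Of the 11 lymphatic endothelial markers, 11 had a read in some library of HEV PEG, 10 of HEV control, 10 of FRC PEG and 11 of FRC control. A single read was enough for this count, as for Pdpn, which held at most 1 read in each HEV PEG library. The markers had summed levels of 117 to 248, 93.9 to 215, 253 to 391 and 290 to 330 CPM in that order. This sum includes Pdpn, which is also on the fibroblast list and was at 183 to 265 CPM in FRC PEG and 203 to 239 CPM in FRC control libraries. Without Pdpn, left out after its values were seen, the other 10 markers summed to 117 to 248, 93.8 to 215, 51.2 to 132 and 76.4 to 115 CPM in the same order. The part of the lymphatic markers in the Spns2 and S1pr1 levels was not tested. Exons of Spns2 overlap those of Mybbp1a on the opposite strand over 131 bases, and whether the counting used strand is not given in the sources used here.

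S1pr1, the receptor that couples to the inhibitory G protein and tightens endothelial junctions, was nearly restricted to the HEV libraries. In HEV PEG libraries it ran from 186 CPM over a median of 264 to 472 CPM, against 0, 0.0607 and 5.08 CPM in FRC PEG libraries. HEV control libraries 8, 9, 17 and 24 held 409, 454, 278 and 295 CPM, against a lowest, median and highest of 0.0615, 2.21 and 3.02 CPM in FRC control libraries. In reads, the HEV PEG libraries held 23562 together and the FRC PEG libraries 101, of which 94 were in library 2 and none in 3 libraries. The log2 fold change was 10.17 ± 1.23 under PEG (adjusted p = 5.19e-05) and 8.09 ± 0.93 in control mice (adjusted p = 1.05e-04). These fits rest on few FRC reads. Without FRC PEG library 2 the value under PEG was 11.94, without HEV PEG library 7 it was 11.31, without a pool term 8.52, and in libraries 1 to 9 alone 8.15 (adjusted p = 0.0942). Without FRC control library 4 or 20 the value in control mice was 8.79 or 8.76.

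S1pr3, a receptor known for contraction of vascular smooth muscle and signalling through several G proteins, showed the opposite pattern. It had 0, 0.286 and 3.21 CPM (lowest, median, highest) in HEV PEG libraries and 27.1, 68.2 and 202 CPM in FRC PEG libraries. In HEV control libraries 8, 9, 17 and 24 it had 0, 0.0583, 0.750 and 0.208 CPM, against 47.7, 74.8 and 159 CPM in FRC control libraries. No HEV library reached the lowest FRC library, and the HEV libraries held 35 reads under PEG and 15 in control mice. The log2 fold change was -7.67 ± 0.99 under PEG (adjusted p = 5.09e-05) and -8.42 ± 0.91 in control mice (adjusted p = 3.74e-05). It ran from -8.63 without FRC PEG library 10 to -6.80 without HEV PEG library 7, with -8.55 without FRC PEG library 11. In control mice it ran from -9.69 without HEV control library 17 to -7.54 without HEV control library 8. Under the other settings, which include each range of libraries alone, S1pr3 ran from -14.55 to -6.85 under PEG. In control mice it ran from -11.72 to -6.79 under these settings.

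S1pr2, the receptor that opposes cell migration, was also an FRC transcript. It had 0.316, 3.89 and 13.7 CPM (lowest, median, highest) in HEV PEG libraries and 19.5, 60.4 and 133 CPM in FRC PEG libraries, with no overlap. HEV control libraries 8, 9, 17 and 24 held 31.8, 0.175, 0.409 and 3.34 CPM, against 29.7, 57.7 and 70.7 CPM in FRC control libraries. Library 8 alone reached into the FRC range. The log2 fold change was -3.02 ± 0.84 under PEG (adjusted p = 0.0147) and -3.38 ± 1.13 in control mice (adjusted p = 0.0470). Under PEG it was -3.67 without HEV PEG library 14 and -3.65 without HEV PEG library 23, and it passed with each single library left out, but not in libraries 10 to 24 alone (-2.80, adjusted p = 0.0688) or in libraries 1 to 9 alone (-3.71, adjusted p = 0.135). In control mice the call was lost without any 1 of 9 libraries (HEV control 9, 17 and 24 and FRC control 4, 6, 12, 13, 20 and 21; adjusted p 0.0521 to 0.113) and without the pool term (-2.42, adjusted p = 0.126). Without HEV control library 8 it was -5.58 (adjusted p = 0.00280).

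FRC libraries also carried pericyte and smooth muscle markers, with a summed level of 112 to 280 CPM in HEV PEG, 200 to 628 CPM in HEV control, 3685 to 5147 CPM in FRC PEG and 3591 to 5278 CPM in FRC control libraries. All 11 markers of that list had a read in some library of each group. Their part in the levels of S1pr2 and S1pr3 was not tested.

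Enpp2 was abundant in both cell types and higher in HEV cells. It ran from 847 over a median of 1100 to 1819 CPM in HEV PEG libraries and from 134 over 167 to 310 CPM in FRC PEG libraries. HEV control libraries 8, 9, 17 and 24 held 1412, 1557, 984 and 1406 CPM, against a lowest, median and highest of 147, 180 and 342 CPM in FRC control libraries. The groups did not overlap, and the ratio of mean CPM was 5.88 under PEG and 6.35 in control mice. The log2 fold change was 2.60 ± 0.24 under PEG (adjusted p = 2.19e-06) and 2.90 ± 0.19 in control mice (adjusted p = 5.09e-07). Among the members it had the smallest standard error in both comparisons. Under the other settings, which include each range of libraries alone, Enpp2 ran from 2.34 to 3.35 under PEG and from 2.49 to 3.09 in control mice.

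None of the enzymes that make and destroy S1P passed the test between the cell types. Sphk1, the mainly cytosolic kinase, averaged 85.1 ± 57.6 CPM (SD, n = 6) in HEV PEG and 124 ± 30.3 (n = 7) in FRC PEG libraries, and 113 ± 24.2 (n = 4) in HEV control and 114 ± 35.9 (n = 7) in FRC control libraries. Its log2 fold change of HEV over FRC was -0.54 (95% interval -1.28 to 0.20, adjusted p = 0.290) under PEG and 0.13 (-0.49 to 0.75, adjusted p = 0.803) in control mice. HEV PEG library 7 held 198 CPM and the other 5 libraries of its group 35.7 to 78.3 CPM. Without that library Sphk1 was lower in HEV cells under PEG (-1.21, adjusted p = 0.00347), as it was in libraries 10 to 24 alone (-1.18, adjusted p = 0.00584). In libraries 1 to 9 alone the value was 1.07 (adjusted p = 0.215).

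Sphk2, the kinase found also in the nucleus, averaged 35.5 ± 22.3 CPM (SD, n = 6) in HEV PEG and 28.2 ± 15.8 (n = 7) in FRC PEG libraries, and 19.8 ± 17.8 (n = 4) in HEV control and 38.3 ± 21.6 (n = 7) in FRC control libraries. Its log2 fold change was -0.02 (95% interval -1.25 to 1.22, adjusted p = 0.989) under PEG and -1.28 (-2.26 to -0.30, adjusted p = 0.0573) in control mice. HEV control library 24 held 46.4 CPM and the other 3 held 9.05 to 12.3 CPM. Without library 24 the value in control mice was -1.65 (adjusted p = 0.0274), and the DESeq2 test (adjusted p = 0.0114) and the fit with the i5 index (adjusted p = 0.0420) also passed it. Exons of Sphk2 overlap those of Dbp over 539 and of Rpl18 over 373 bases on the opposite strand, so its counts are uncertain.

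Sgpl1, the lyase that ends S1P by irreversible cleavage, averaged 28.1 ± 25.8 CPM (SD, n = 6) in HEV PEG and 46.3 ± 21.7 (n = 7) in FRC PEG libraries. In HEV control libraries 8, 9, 17 and 24 it was at 0.190, 11.2, 10.6 and 22.9 CPM, against 23.8, 38.3 and 97.7 CPM (lowest, median, highest) in FRC control libraries. All 4 HEV control libraries lay below all 7 FRC control libraries, the highest of the HEV libraries just under the lowest of the FRC libraries. The log2 fold change was -1.05 ± 0.53 under PEG (adjusted p = 0.170) and -1.96 ± 0.94 in control mice (adjusted p = 0.166). In control mice the value was -1.07 without HEV control library 8 and -2.63 without HEV control library 9, and it passed with DESeq2 (adjusted p = 0.0393) and with no filter on low counts (adjusted p = 0.0226).

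Counted by overlap alone, all HEV control libraries lay above all FRC control libraries in 3 members (Spns2, S1pr1, Enpp2) and below them in 2 (S1pr3, Sgpl1), where 19.4% of the genes tested did not overlap (8.07% above, 11.3% below). Under PEG they lay above in the same 3 and below in S1pr2 and S1pr3, where 17.2% did not overlap (7.78% above, 9.4% below).

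**Figure D2:**
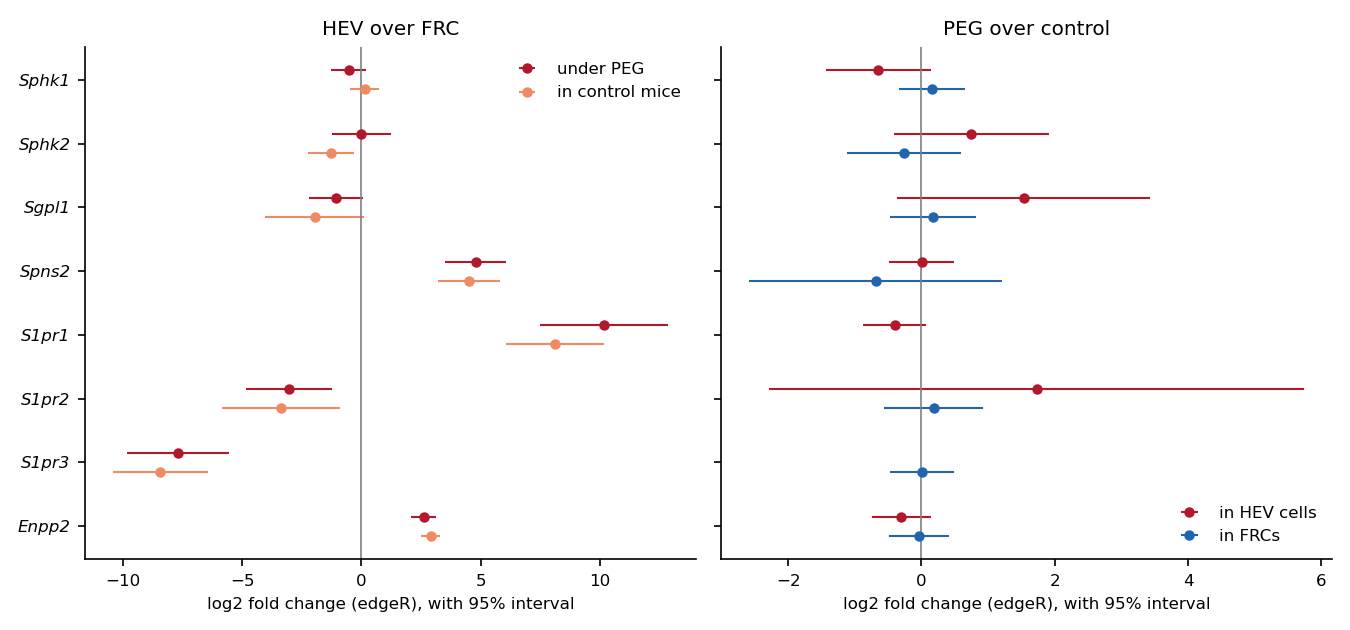
Log2 fold changes of the members from edgeR with 95% intervals, on the left HEV over FRC under PEG and in control mice, on the right PEG over control in HEV cells and in FRCs. On the left 5 members lie clear of 0 in both comparisons. On the right every interval includes 0, and S1pr1 in FRCs and S1pr3 in HEV cells were below the filter on low counts and have no fit.

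To set the members beside each other, the deposited RPKM (reads scaled by gene model length, depth and a size factor) was used. The length scaling implied by these values followed annotated exon length only in part (Spearman rho 0.79 over 12378 genes). It was 72.0 for S1pr2 and 82.2 for S1pr3 in relative units, where their annotated exons cover 7971 and 4463 bases. Orders, shares and ratios from RPKM hold for the deposited scaling only. In HEV cells Enpp2 stood first, at 190 ± 61.2 RPKM (SD, n = 6) under PEG and 222 ± 38.4 (n = 4) in control mice, followed by S1pr1 at 73.5 ± 26.2 and 92.4 ± 21.8 RPKM. Spns2 had 21.5 ± 3.86 and 21.3 ± 1.65 RPKM and Sphk1 12.9 ± 9.02 and 17.3 ± 3.53, which overlap in range under PEG. Sphk2, Sgpl1 and S1pr2 averaged 6.54, 5.22 and 1.12 RPKM under PEG and 3.67, 2.10 and 1.78 in control mice, within their SDs of each other in control mice. In FRCs Enpp2 again stood first, at 32.1 ± 10.1 RPKM under PEG and 34.6 ± 11.6 in control mice (n = 7 each). Sphk1 at 18.6 and 17.2, S1pr3 at 17.8 and 16.0, S1pr2 at 11.5 and 9.76, Sgpl1 at 8.59 and 8.22 and Sphk2 at 5.19 and 7.01 RPKM followed in FRC PEG and FRC control libraries. Spns2 at 0.849 and 0.996 and S1pr1 at 0.200 and 0.391 RPKM came last in FRCs. The order in FRCs depended on the library range. In libraries 1 to 9 S1pr3 had 15.2 to 35.6 RPKM and Sphk1 11.8 to 22.9, and in libraries 10 to 24 S1pr3 had 4.61 to 12.3 RPKM and Sphk1 8.81 to 24.1.

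The receptor make-up of a cell type can be read as each receptor's share of the summed RPKM of S1pr1 to S1pr5 in a library. S1pr1 took 85.8 ± 5.36% (SD, n = 6) in HEV PEG and 92.2 ± 2.16% (n = 4) in HEV control libraries, against 0.396 ± 0.825% in FRC PEG and 1.67 ± 1.66% in FRC control libraries (n = 7 each). S1pr3 took 0.178 ± 0.310% and 0.0537 ± 0.0751% in HEV PEG and HEV control libraries, against 56.3 ± 18.5% and 55.7 ± 11.4% in FRC PEG and FRC control libraries. S1pr2 took 1.59 ± 1.98% and 1.64 ± 2.69% in HEV PEG and HEV control libraries, against 41.1 ± 18.9% and 36.2 ± 13.5% in FRC PEG and FRC control libraries. On the deposited scaling HEV cells thus held mainly 1 receptor transcript, and FRCs a mixture whose balance varied widely between libraries. The remaining share was mostly S1pr4, a receptor gene of lymphocytes, at 12.4 ± 5.71% in HEV PEG, 6.10 ± 4.27% in HEV control, 1.97 ± 3.54% in FRC PEG and 6.40 ± 7.18% in FRC control libraries. Summed leukocyte markers ran from 226 to 470 CPM in HEV PEG, from 250 to 767 CPM in HEV control, from 177 to 401 CPM in FRC PEG and from 67.3 to 267 CPM in FRC control libraries, and their part in S1pr4 was not tested. S1pr5 averaged at most 0.22% of the sum in each group.

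**Figure D3:**
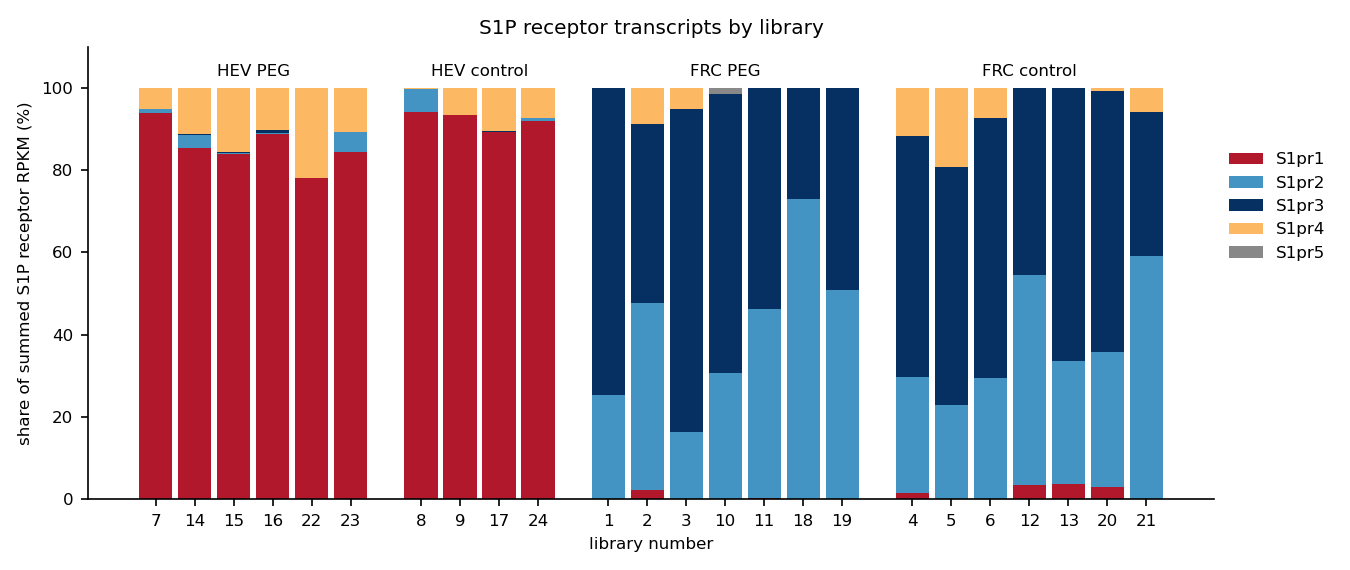
Share of each S1P receptor gene in the summed RPKM of the 5 receptor genes, in percent, with 1 bar per library, grouped and labelled by library number. S1pr1 fills 78.0% to 94.1% of each HEV bar, and S1pr2 with S1pr3 fills most of each FRC bar, with S1pr2 alone between 16.2% and 73.1% in FRC PEG libraries.

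Within a library, the log2 ratio of S1pr1 to S1pr2 RPKM (0.1 added to each) averaged 6.66 ± 1.95 in HEV PEG, 7.27 ± 2.51 in HEV control, -5.91 ± 0.98 in FRC PEG and -4.74 ± 1.67 in FRC control libraries. The ratio of Sphk1 to Sphk2 averaged 1.08 ± 1.93, 2.50 ± 1.11, 2.00 ± 0.86 and 1.38 ± 0.96 in the same order of groups, so that Sphk1 was on average the more abundant kinase transcript in each. It ran from -0.76 to 4.67 within HEV PEG libraries, wider than in any other group. The highest was library 7, without which the HEV PEG mean was 0.36.

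No member passed the test between PEG and control in either cell type. In HEV cells 0 of the 7 members tested passed, where 0% of 14308 genes passed (edgeR; 886 genes at an unadjusted p under 0.05, 116 adjusted with DESeq2). In FRCs 0 of 7 passed, where 0% of 14595 genes passed (edgeR; 989 genes at an unadjusted p under 0.05, 57 adjusted with DESeq2, which gave 13587 genes no adjusted p). No member had an unadjusted p under 0.05 in either comparison. With DESeq2 in HEV cells, Sgpl1 had an unadjusted p of 0.0442 (adjusted p = 0.433). No member had groups without overlap, as against 0.937% of genes in HEV cells (0.538% higher, 0.398% lower) and 0.0754% in FRCs (0.0411% higher, 0.0343% lower).

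The intervals bound what these libraries can show. In HEV cells they were narrowest for Enpp2 (log2 fold change -0.30, 95% interval -0.74 to 0.14), S1pr1 (-0.40, -0.87 to 0.07) and Spns2 (0.00, -0.49 to 0.49). The Enpp2 and S1pr1 values lay on the lower side, with 1 of 6 PEG libraries above the control median for each gene, and Spns2 was level. Both had an adjusted p of 0.829 or more (unadjusted 0.166 for Enpp2 and 0.0884 for S1pr1). In libraries 1 to 9, which hold 1 HEV PEG and 2 HEV control libraries, Enpp2 was at 1819 CPM in library 7 against 1412 and 1557 CPM, and S1pr1 at 472 CPM against 409 and 454 CPM. In libraries 10 to 24 Enpp2 averaged 1029 ± 183 CPM (SD, n = 5) in PEG libraries and was at 984 and 1406 CPM in control libraries, and S1pr1 at 253 ± 45.7 CPM (n = 5) in PEG and 278 and 295 CPM in control libraries. The direction thus differed between the ranges of libraries for both genes.

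Sphk1 in HEV cells had a log2 fold change of -0.65 (95% interval -1.43 to 0.14, adjusted p = 0.829). In libraries 10 to 24 the 5 PEG libraries held 35.7 to 78.3 CPM and the 2 control libraries 96.8 and 106 CPM, with no overlap, whereas in libraries 1 to 9 the PEG library held 198 CPM and the controls 100.2 and 149 CPM. The fit gave -0.95 (adjusted p = 0.750) in libraries 10 to 24 and 0.70 in libraries 1 to 9. Intestinal epithelium markers summed to 41.8 to 4413 CPM (median 1799) in HEV PEG and 16.6 to 745 CPM (median 687) in HEV control libraries. All 18 of these markers had a read in some library of each group. Their part in the Sphk1 value, and in those of Sgpl1, Sphk2 and S1pr2 that follow, was not tested. Sgpl1 (1.53, -0.37 to 3.44), Sphk2 (0.75, -0.42 to 1.92) and S1pr2 (1.73, -2.29 to 5.75) had wide intervals in HEV cells. Sgpl1 was at 0.85 without HEV control library 8, at 0.86 without HEV PEG library 7 and at 2.94 without HEV control library 9, and S1pr2 at -1.06 without HEV PEG library 23 and at 2.99 without HEV control library 24. The mean CPM of S1pr2 was 5.82 in HEV PEG and 8.92 in HEV control libraries, the opposite side from the pool-adjusted fold change. S1pr3 had too few reads to pass the filter, and showed a difference of 0.30 in mean log2(CPM + 1) between HEV PEG and HEV control libraries (exact permutation test over 210 splits, two-sided p = 0.610). Without HEV PEG library 16, which had the highest level, the difference was 0.00818.

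In FRCs the intervals were narrowest for Enpp2 (-0.04, 95% interval -0.48 to 0.41), S1pr3 (0.01, -0.48 to 0.49) and Sphk1 (0.16, -0.33 to 0.66). Sgpl1 was at 0.17 (-0.48 to 0.82), S1pr2 at 0.18 (-0.56 to 0.93), Sphk2 at -0.26 (-1.12 to 0.59) and Spns2 at -0.69 (-2.59 to 1.22). Enpp2, S1pr3, S1pr2, Sphk1 and Sgpl1 each changed sign when single libraries were left out, with all values between -0.19 and 0.38. S1pr1, below the filter, had 101 reads over the FRC PEG libraries and 187 over the FRC control libraries, a difference of -0.66 in mean log2(CPM + 1) (exact permutation test over 3432 splits, two-sided p = 0.237). Without FRC PEG library 2, which held 94 of the 101 reads, the difference was -1.02 (exact permutation p = 0.0408). Of the pan-endothelial markers all 16 had a read in some library of each group. Their summed level was 259 to 465 CPM (median 324) in FRC PEG and 202 to 549 CPM (median 399) in FRC control libraries. Their part in the few S1pr1 reads was not tested. Intestinal epithelium markers summed to 83.6 to 5994 CPM (median 543) in FRC PEG and 47.7 to 2612 CPM (median 172) in FRC control libraries. The part of the epithelium markers in the FRC values was not tested.

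The PEG effect in HEV cells minus that in FRCs was fitted over all 24 libraries, and 0 of 8 members passed where 0.011% of 18203 genes did (edgeR). The members' differences ran from -0.69 for Sphk1 (95% interval -1.62 to 0.25, adjusted p = 0.639) to 1.12 for Sphk2 (-0.28 to 2.52, adjusted p = 0.599). At an unadjusted p under 0.05 with edgeR the count of members was also 0, against 1834 of 18203 genes. Adjusted with DESeq2 it was 0 as well, against 360 genes passed. S1pr1, whose difference was 0.91, was at 3.83 without FRC PEG library 2.

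Several members differed between libraries 1 to 9 and libraries 10 to 24, across treatments. In FRCs S1pr3 was at 85.8 to 202 CPM in the 6 libraries of the first range and 27.1 to 74.8 CPM in the 8 of the second, with no overlap. It was the 1 member of 8 whose ranges did not overlap in FRCs, where 5.06% of 14595 genes did not overlap (2.2% higher in the first range, 2.86% lower). The split held within PEG (174 ± 28.2 CPM, n = 3, and 50.3 ± 17.3, n = 4) and within control libraries (133 ± 41.3, n = 3, and 62.9 ± 12.3, n = 4). Summed fibroblast markers ran from 34756 to 44690 CPM in the first range and from 26368 to 32114 CPM in the second, also with no overlap, while pericyte and smooth muscle markers overlapped (3685 to 5278 and 3591 to 5147 CPM). In HEV cells S1pr1 was at 409 to 472 CPM in the 3 libraries of the first range and 186 to 311 CPM in the 7 of the second. Enpp2 was at 1412 to 1819 and 847 to 1406 CPM, and Sphk2 at 5.86 to 11.2 and 12.3 to 69.0 CPM. S1pr1 and Enpp2 were thus higher and Sphk2 lower in the first range, without overlap. These were 3 of the 8 members, where 11.5% of 14308 genes in HEV cells did not overlap (5.51% higher in the first range, 5.94% lower). These ranges were not tested against each other, and what else differs between them is not given in the labels. No label marks a split between libraries 9 and 10, and the pools inferred from index pairs break elsewhere. The counts without overlap along this split are therefore a description only.

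Counts in 5 wider pathway lists are read against the share of all genes that passed between the cell types, 26.8% under PEG (12.5% higher, 14.4% lower) and 24.6% in control mice (10.4% higher, 14.2% lower). In a list of 14 other genes of S1P reception and handling, 2 were higher and 2 lower in HEV cells under PEG (11 tested) and in control mice (9 tested), and 3 of the 4 called in each were shared. These are 36.4% of the tested genes of the list under PEG and 44.4% in control mice. Abca1, a lipid transporter, was at 215 ± 46.7 CPM in HEV PEG and 32.1 ± 9.43 in FRC PEG libraries (log2 fold change 2.95 ± 0.21) and at 166 ± 73.8 in HEV control and 19.3 ± 16.7 in FRC control libraries (3.13 ± 0.37). Plpp3, a phosphatase that removes extracellular S1P and LPA, was lower in HEV cells than in FRCs (-1.71 ± 0.23 under PEG, -2.07 ± 0.41 in control mice). Sgpp1, an S1P phosphatase of the endoplasmic reticulum, was also lower in HEV cells (-3.28 ± 1.07 and -6.30 ± 1.27), at 2.24 CPM in HEV PEG against 12.5 CPM in FRC PEG libraries, and at 0.234 CPM in HEV control against 12.0 CPM in FRC control libraries. S1pr4 was higher in HEV cells than in FRCs under PEG (9.39 ± 2.17, adjusted p = 0.00478), where the FRC PEG libraries held 388 reads and 5 of them none. Plpp1 was higher in HEV cells in control mice (0.54 ± 0.16, adjusted p = 0.0312). In the difference of the PEG effects no listed gene passed with edgeR. At an unadjusted p under 0.05 were 10 listed genes, and 1834 of all 18203 genes tested. DESeq2 passed Nos3 and Smpd1 of the lists, and 360 genes in all.

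Of 12 genes of LPA reception and handling, 2 were higher and 2 lower in HEV cells under PEG and 2 higher and 3 lower in control mice (8 tested in each), and all 4 called under PEG were among the 5 called in control mice. These are 50% of the tested genes under PEG and 62.5% in control mice. Lpar1, the LPA receptor of fibroblasts, was at 2.46 ± 2.35 CPM in HEV PEG and 909 ± 189 in FRC PEG libraries (-8.65 ± 0.81, adjusted p = 5.63e-06) and at 1.71 ± 2.75 in HEV control and 864 ± 117 in FRC control libraries (-9.56 ± 0.96, adjusted p = 3.83e-05). The LPA receptors Lpar6 (1.44 ± 0.38 under PEG, 2.71 ± 0.58 in control mice) and Lpar4 (1.98 ± 0.57 and 2.67 ± 0.86) were higher in HEV cells than in FRCs. These 3 LPA receptors thus differed by cell type. Acp6, an LPA phosphatase, was lower in HEV cells (-1.56 ± 0.44 and -3.29 ± 0.96). Pla1a, a phospholipase, had 0 reads in all 4 HEV control libraries and ran from 0.0689 to 13.1 CPM in FRC control libraries, and was lower in HEV cells in control mice (adjusted p = 0.0172).

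Among 17 genes of ceramide and sphingoid base synthesis, 2 were higher and 1 lower in HEV cells under PEG (14 tested) and 2 higher and 0 lower in control mice (15 tested), with 1 in common. These are 21.4% under PEG and 13.3% in control mice, below the 26.8% and 24.6% of all genes. The gene in common, Sptlc2, a subunit of the enzyme that begins sphingolipid synthesis, was at 641 ± 205 CPM in HEV PEG and 81.8 ± 18.5 in FRC PEG libraries (3.02 ± 0.25, adjusted p = 8.91e-07) and at 661 ± 87.9 in HEV control and 74.4 ± 15.2 in FRC control libraries (3.24 ± 0.18, adjusted p = 1.84e-07). Degs1, the desaturase that forms ceramide, was higher in HEV cells than in FRCs among control mice (1.55 ± 0.20). Among PEG-treated mice the reductase Kdsr was higher in HEV cells (0.85 ± 0.28) and Ormdl3, a brake on the first enzyme of the pathway, lower (-1.71 ± 0.29). Of 14 ceramidases, sphingomyelinases and sphingolipid transferases, 5 were higher and 2 lower under PEG (13 tested) and 5 higher and 0 lower in control mice (14 tested), with 5 in common. These are 53.8% under PEG and 35.7% in control mice. They include the ceramidases Acer2, Acer3 and Asah2, which release the sphingosine that sphingosine kinases use. Acer2 had 114 ± 43.5 CPM in HEV PEG and 1.42 ± 3.28 in FRC PEG libraries (7.78 ± 1.26) and 128 ± 92.5 in HEV control and 2.11 ± 3.85 in FRC control libraries (7.45 ± 1.60). Asah2 (3.24 ± 0.63 and 3.75 ± 0.83), Acer3 (1.95 ± 0.39 and 2.68 ± 0.36), the glucosylceramide synthase Ugcg (2.32 ± 0.28 and 1.98 ± 0.27) and the sphingomyelin synthase Sgms1 (2.07 ± 0.31 and 2.17 ± 0.42) were higher in HEV cells than in FRCs, both among PEG-treated and among control mice. The sphingomyelinases Smpd1 (-1.37 ± 0.34) and Smpd2 (-2.51 ± 0.72) were lower in HEV cells than in FRCs among PEG-treated mice.

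Of 29 G proteins and effectors, 9 were higher and 3 lower in HEV cells under PEG (41.4%) and 8 higher and 3 lower in control mice (37.9%), with 9 in common, against 26.8% and 24.6% of all genes. The inhibitory G protein subunit Gnai2, which serves S1pr1, was at 292 ± 31.8 CPM in HEV PEG and 83.6 ± 18.0 in FRC PEG libraries (1.88 ± 0.19) and at 341 ± 107 in HEV control and 97.6 ± 18.8 in FRC control libraries (1.87 ± 0.22). The endothelial nitric oxide synthase gene Nos3 (11.51 ± 0.60 and 7.40 ± 0.91), the phospholipase Plcb1 (3.87 ± 0.46 and 2.82 ± 0.55) and the arrestin Arrb1 (1.71 ± 0.21 and 1.02 ± 0.31) were higher in HEV cells than in FRCs, and so was Rac1 (1.07 ± 0.25 and 1.44 ± 0.19). The G protein regulators Rgs5 (-5.20 ± 0.69 and -5.46 ± 0.35) and Rgs2 (-3.10 ± 0.45 and -3.93 ± 0.74) and the subunit Gnai1 (-7.59 ± 1.12 and -3.15 ± 0.98) were lower in HEV cells. Rgs5 is also on the pericyte list. Between PEG and control, no tested gene of the 5 lists passed with edgeR, in HEV cells (4 at an unadjusted p under 0.05) or in FRCs (8). DESeq2 passed Gnai1 in HEV cells (-7.54, adjusted p = 0.00218) and Rhob in FRCs (-0.53, adjusted p = 0.0319).

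**Figure D4:**
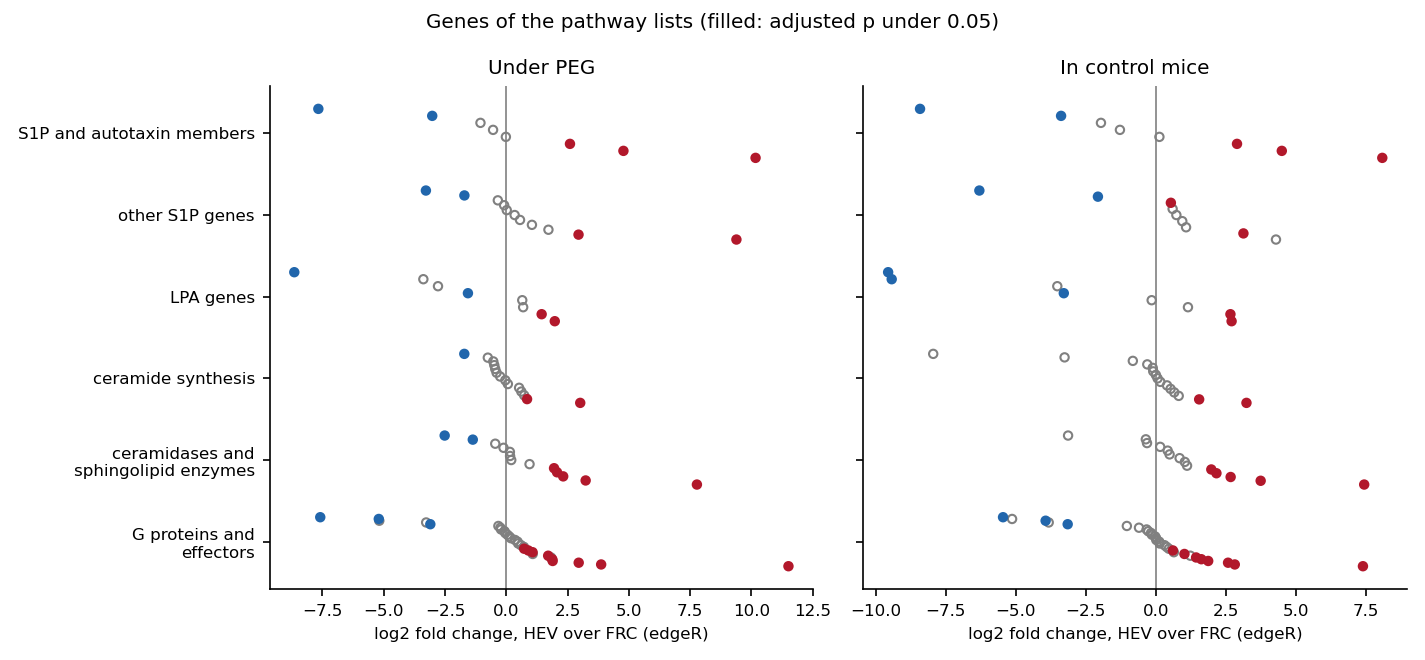
Log2 fold changes of HEV over FRC from edgeR for the tested members and genes of the 5 pathway lists, under PEG and in control mice, with 1 point per gene and filled points for an adjusted p under 0.05. The members and the LPA genes spread widely to both sides, and the called ceramidases and sphingolipid enzymes lie mostly to the right.

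For each member, the 3 genes of nearest pattern over the 24 libraries were sought among 11865 genes, by the root mean square difference of centred log2(CPM + 1). Enpp2 had the smallest differences, to Clic4 (0.36), Socs2 (0.37) and Hif1a (0.38). S1pr3 was nearest to Lrrc17, Tgfb3 and Itga11 (0.55 to 0.66), and S1pr2 to Frmd6, Isoc1 and Pmp22 (0.99 to 1.04). S1pr1 was nearest to AU021092, Nxpe2 and Nxph1 (0.81 to 0.83), and Spns2 to Insl3, Gm33531 and Fam107a (0.73 to 0.84). All of these follow the split between the cell types, with mean levels that differ between HEV cells and FRCs in the direction of the member. Sphk1 was nearest to Derl1, Bysl and Grina (0.41 to 0.45), Sphk2 to Zfas1, Tradd and Tomm6 (0.58 to 0.61), and Sgpl1 to Limd1, Agpat3 and Fbxo4 (0.74 to 0.83). A gene with no variation would lie at the member's own root mean square spread about its mean. That spread was 0.57 for Sphk1, 0.94 for Sphk2, 1.34 for Enpp2, 1.37 for Sgpl1, 2.12 for S1pr2, 2.36 for Spns2, 3.02 for S1pr3 and 3.76 for S1pr1. The differences therefore do not rank the matches between members. The choice of nearest genes depends on the pseudocount. With 0.1 CPM in place of 1, S1pr3 kept 0 of its 3 nearest genes, S1pr1 and Spns2 kept 1 each, S1pr2, Sphk1 and Sgpl1 kept 2 each, and Sphk2 and Enpp2 kept 3 each.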

How the data were processed

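RNA-seq of sorted Peyer's patch cells was used as deposited: 24 files with a read count per gene model and an RPKM value, the latter scaled by the authors with a size factor, per the file headers. GSNAP was the aligner and mm9 the build, per the submitters' processing notes; the labels' protocol names HTSeqGenie and a human build, which the mouse gene IDs contradict. Strand use in counting is not given in the sources used here. Entrez gene IDs were matched to RefSeq symbols (GRCm38.p6), which covered 85.0% of 36528 models and 97.3% of reads. The 8 members, the pathway and the marker lists were chosen with earlier results of these data known. No sample column was left unmapped (0).

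Deposited counts were tested with edgeR 4.0.16 (R 4.3.3) by the robust quasi-likelihood F test with TMM scaling, filterByExpr with a minimum count of 10, and sequencing pool as covariate. The p-values were adjusted over all genes tested (Benjamini-Hochberg, threshold 0.05), and intervals are 95%. Standard errors of edgeR fold changes were computed as the absolute log2 fold change divided by the square root of the F statistic. The intervals were computed from these with a t quantile. Pools were inferred from reuse of index pairs in the labels (libraries 1 to 8, 9 to 16 and 17 to 24). The pool term thus puts library 9 with libraries 10 to 16, and does not follow the split between libraries 1 to 9 and 10 to 24. The PEG comparisons were fitted within a cell type, HEV against FRC within a treatment, and the difference of PEG effects over all 24 libraries. Members under the filter were tested on log2(CPM + 1) by exact permutation. Alternatives were DESeq2 1.42.0, other size factors, no filter, no covariate, pool with i5 index, libraries 1 to 9 or 10 to 24 alone, and leaving out each library. The scripts were tested on simulated data. Named genes were the 8 members and, per pathway list, up to 4 called genes of smallest p in each direction between the cell types, and the 3 genes nearest in pattern to each member; Acer2 and Arrb1 in control mice and Acer3 and Rac1 under PEG are beyond this, and were added after their values were seen. Descriptions used Python 3.11.15, pandas 2.3.3, NumPy 2.4.6 and SciPy 1.17.1. Depth ran from 3115003 to 21710946 reads in genes (median 16136689), so that 3 reads are the lowest level read as above 0, for counting error only.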

Additional observations from a re-analysis of the deposited data

Results flagged for a closer look

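In groups of 4 to 10 libraries, a library was singled out where its gap to the nearest other, relative to the group's range, exceeded Dixon's 95% critical value. Of 32 member and group combinations 7 had such a library, in each case the highest of its group. The critical values hold for normally distributed values, and CPM cannot fall under 0. The count can therefore not be set against the rate of 1 in 20 that chance gives for such values. Sphk1 was at 198 CPM in HEV PEG library 7, with the next library at 78.3 CPM. S1pr3 was at 3.21 CPM in HEV PEG library 16, the shallowest, with the next at 0.752 CPM. Sphk2 was at 46.4 CPM in HEV control library 24 and the next at 12.3 CPM. S1pr2 was at 31.8 CPM in HEV control library 8 and the next at 3.34 CPM. FRC PEG library 2 stood out for S1pr1, at 5.08 CPM with the next at 0.250 CPM, and for S1pr2, at 133 CPM with the next at 64.5 CPM. Sgpl1 was at 97.7 CPM in FRC control library 6 and the next at 46.1 CPM.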

How the results depend on the processing

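Of the log2 fold changes of members under other settings, 241 kept their direction and side of the threshold, 37 reversed, 5 newly passed and 6 no longer passed. With single libraries left out the counts were 505, 36, 2 and 9. The cause of these changes was not tested. In libraries 1 to 9 alone, HEV over FRC for Sphk1 was 1.07 under PEG and -0.0728 in control mice. There, PEG over control in HEV cells was 0.32 for Enpp2, 0.16 for S1pr1, -1.50 for S1pr2, 0.70 for Sphk1, -0.76 for Sphk2 and -0.19 for Spns2, and in FRCs -0.16 for Sgpl1, -0.47 for Sphk1 and 0.13 for Sphk2. The difference of PEG effects there was 0.88 for Enpp2, -0.61 for S1pr1, -2.01 for S1pr2, -2.71 for S1pr3, 1.16 for Sphk1 and -0.91 for Sphk2. Of the members 2 passed under PEG there, and of the list genes 8 under PEG, 11 in control mice and 1 in the difference. Over all genes, 1477 of 15262 passed in control mice in libraries 1 to 9 alone, against 3869 of 15743 with all control libraries. The lower count of list genes in control mice thus goes with a lower count over all genes. Under PEG and in the difference, libraries 1 to 9 hold 1 HEV PEG library, so the counts passed there are not interpreted. In libraries 10 to 24 alone, HEV over FRC was 0.48 for Sphk2 under PEG and -0.17 for Sphk1 in control mice. PEG over control in FRCs was 0.36 for Enpp2, -0.0786 for S1pr2, -0.30 for S1pr3 and 0.36 for Spns2, and the difference was -0.15 for S1pr3 and -0.49 for Spns2. Without the covariate, Sphk2 was 0.36 in HEV over FRC under PEG, S1pr2 was -0.68 and Spns2 -0.00947 between PEG and control HEV cells, and S1pr2 was -0.88 in the difference. With pool and i5 index, S1pr2 was -0.52 and Sphk2 -0.15 between PEG and control in HEV cells, S1pr3 -0.14 in FRCs, and S1pr2 -0.47 in the difference. That fit could not be made for HEV over FRC under PEG, where the i5 index and the cell type coincide. S1pr3 in FRCs was -0.00900 with the DESeq2 test, -0.00919 with DESeq2 size factors and -0.0181 with the submitters' size factors, and Spns2 in HEV cells -0.0148 with no filter. DESeq2 passed 1 list gene between PEG and control in HEV cells, 1 in FRCs and 2 in the difference. Over all genes it passed 116, 57 and 360 in the same order. With a pseudocount of 1 RPKM, S1pr1 over S1pr2 was -3.26 in FRC PEG and -2.91 in FRC control libraries. S1pr1 over S1pr3 was 6.00 in HEV PEG, 6.45 in HEV control, -3.75 in FRC PEG and -3.53 in FRC control libraries. With a pseudocount of 0.1 CPM, 14 of 24 nearest genes were kept.

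With single libraries left out, HEV over FRC ran from -0.27 to 0.46 for Sphk2 under PEG and from -0.29 to 0.38 for Sphk1 in control mice. PEG over control in HEV cells ran from -0.0674 to 0.15 for Spns2 and from -1.06 to 2.99 for S1pr2. In FRCs it ran from -0.0146 to 0.29 for Sphk1, -0.12 to 0.35 for S1pr2, -0.13 to 0.13 for S1pr3, -0.0345 to 0.38 for Sgpl1 and -0.19 to 0.0684 for Enpp2, and the S1pr1 difference in log2(CPM + 1) from -1.02 to -0.51. The difference of PEG effects ran from -0.0733 to 0.75 for Spns2, -0.49 to 2.32 for S1pr2 and -0.0438 to 2.37 for S1pr3. No paired analysis was possible because the labels do not say which libraries come from the same mouse, and a library number only names a library. Depth limits S1pr1 in FRCs and S1pr3 in HEV cells, at 101 reads or fewer per group under PEG.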
